A study of Mus musculus with 18 samples.

Results

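The comparison described here asked what the loss of Nfkb2 changed in pre-B cells that could not repair their own antigen-receptor breaks, 2 days after the cytokine interleukin 7 (IL-7) was taken away. It set the 3 arrays of withdrawn Art:Nfkb2-labelled cells against the 3 arrays of withdrawn Art-labelled cells, 6 of the 18 arrays in the series, chosen by the column names of the probe signal table and by no measured value. All groups came from bone marrow of mice 4 to 6 weeks old, C57BL/6 and BALB/c mixed, grown for 7 to 10 days in 5 ng/mL of IL-7, and all carried a heavy-chain (IgH) transgene and a Bcl2 transgene. By the titles, Art-labelled cells are Art-/-:IgH:Bcl2 and Art:Nfkb2-labelled cells are Art-/-:Nfkb2-/-:IgH:Bcl2. Both lack Artemis in every culture used here, so the comparison has no Nfkb2-deficient cells with intact repair. Rag-labelled cells (Rag1-/- with the same transgenes) and the IL-7 arrays of each genotype serve as points of reference, with 3 arrays a group. Which promoters drive the transgenes is left unsaid by the labels used here. Each genotype had 3 independent cultures, per the design text. The series title asks how breaks made by the RAG recombinase relate to signals from the pre-B-cell receptor.

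Pre-B cells have rearranged a heavy-chain gene and divide in IL-7. When the cytokine signal weakens they leave the cell cycle and RAG cuts the light-chain genes, and Artemis opens the hairpin ends that RAG leaves so that they can be joined. Nfkb2 encodes p100, which is processed to p52 and pairs chiefly with RelB in the noncanonical branch of NF-kB. Unprocessed p100 also acts as an inhibitor that holds other NF-kB subunits in the cytoplasm. In pre-B cells unrepaired RAG breaks are known to activate NF-kB, and the ETS-family factor SPIC has been placed downstream of Nfkb2 in this setting.

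The 18 arrays detected between 10091 and 10894 of 25697 probes (39.3% to 42.4%), and having 3 arrays a group limits the precision. The median raw signal per array ran from 129.3 to 163. It fell from the first to the third replicate in every group, and the reason was not tested. One array set stood apart by its sex-linked genes. The third Art:Nfkb2-labelled culture read 4.78 for Xist and 10.49 for the Y-linked gene Eif2s3y after withdrawal, while the other 5 withdrawn arrays of the comparison read 10.47 to 11.31 for Xist and at most 4.71 for Eif2s3y. Counts without both arrays of that culture are given below where they differ. The cells carried B-lineage transcripts on every withdrawn array. All 10 tested pre-B defining markers were detected in both groups, among them Cd79b, a signalling chain of the receptor, at 15.63 to 15.71 and 15.62 to 15.71 on the log2 scale. In bulk RNA, fewer cells of a type and less RNA per cell cannot be told apart.

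After withdrawal, 150 of 8446 genes (1.78%) were higher and 187 (2.21%) lower in Art:Nfkb2-labelled than in Art-labelled cells, 3.99% in all, at an adjusted p below 0.05 in limma. This threshold is what "called" means below. At 2-fold or more, 60 were higher and 88 lower. The lower side was led by genes of mitosis, and the higher side by a scattered set that included an IL-9 receptor chain, a cathepsin, an Fc receptor and MHC class II genes. With scaling to the array median in place of quantile normalization, under which the all-gene median was 0.08 instead of -0.0015, the split was 155 higher and 119 lower. The values of 2132 genes (25.2%) did not overlap between the groups. Without the third Art-labelled array 112 genes were lower, without the first 99 were higher, and without the culture with Y-linked signal 96 were higher and 135 lower.

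**Figure D1:**
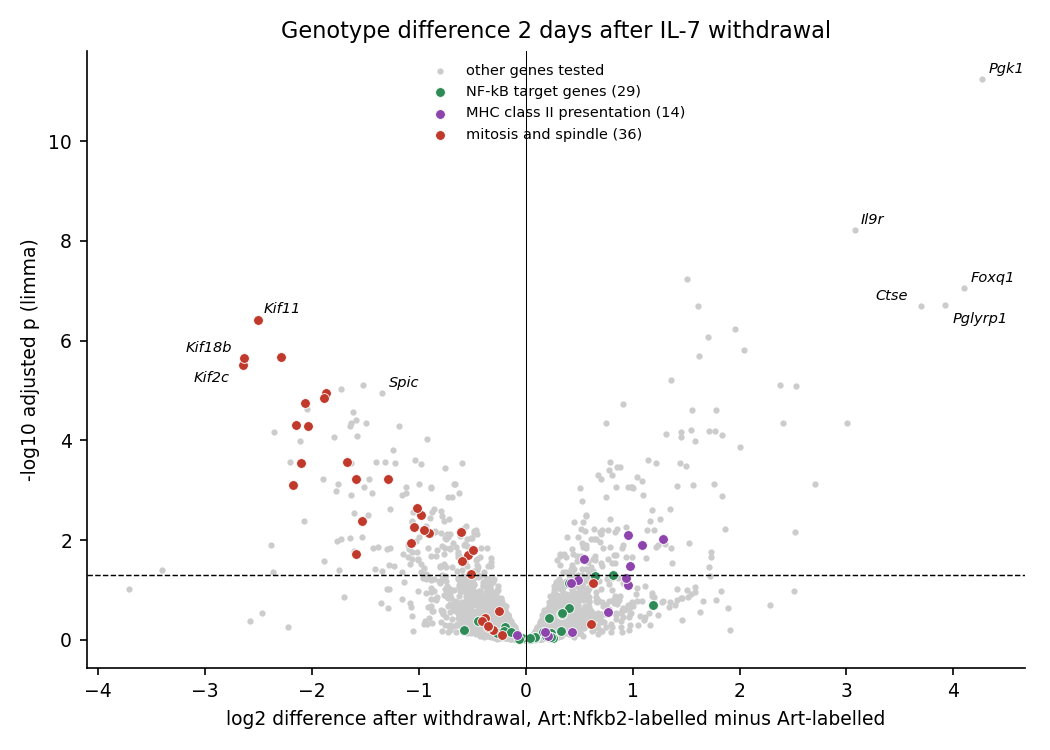
Log2 difference between Art:Nfkb2-labelled and Art-labelled cells after withdrawal (x axis) against -log10 of the adjusted p (y axis) for the 8446 genes tested; the dashed line marks an adjusted p of 0.05. Mitosis and spindle genes (red) lie on the left, with Kif11 at -2.51, 1 of the 29 NF-kB target genes (green) passes the line, and Pgk1 lies farthest right at 4.27.

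The targeted gene was read first. Nfkb2 had a log2 signal of 8.84, 8.81 and 8.74 on the Art-labelled arrays and 9.30, 9.32 and 9.0 on the Art:Nfkb2-labelled arrays after withdrawal. The 3 Art:Nfkb2-labelled arrays were all above the 3 Art-labelled ones. The difference of 0.41 (SE 0.12) had an adjusted p of 0.0718, and 5 of 20 alternative settings called it. Rag-labelled cells read 7.56 ± 0.09 (SD, n = 3). No source used here places the probe relative to the deleted part of the gene, so its level does not check the label, and every group keeps the name of its label. The Artemis gene was not analysed here.

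The other NF-kB subunits showed no called difference, and of the 4 tested with Nfkb2 only Nfkb2 had an unadjusted p below 0.05. Relb, the usual partner of p52, read 11.29, 11.35 and 11.33 on the Art-labelled arrays against 11.04, 11.08 and 11.24 on the Art:Nfkb2-labelled ones. These groups did not overlap, and the difference was -0.20 (SE 0.16, adjusted p = 0.67). Rela, the main activating subunit of the canonical branch, differed by -0.09 (adjusted p = 0.824) and Rel, the lymphoid subunit, by -0.13 (adjusted p = 0.855). Of all genes 3.99% were called, and 1203 of 8446 had an unadjusted p below 0.05, in either direction. Of the 6 inhibitors and related I-kappa-B proteins none was called, near that share for so few genes. At an unadjusted p below 0.05, 3 of them were higher. Bcl3, a nuclear member that binds p52 and p50, read 10.32 on each Art-labelled array and 10.74, 10.72 and 10.53 in Art:Nfkb2-labelled cells, a difference of 0.34 (SE 0.15, adjusted p = 0.299). Nfkbia, the classical inhibitor, differed by 0.16, Nfkbid by 0.41, Nfkbib by 0.31, Nfkbie by -0.14 and Nfkbiz by -0.17.

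Among 22 tested kinases and adaptors of the pathway 2 were higher and 1 was lower, against 1.78% and 2.21% of all genes. Ikbke, which encodes an IKK-related kinase, was the lower one. It read 8.25, 8.08 and 8.34 on the Art-labelled arrays against 7.08, 7.32 and 7.59 on the Art:Nfkb2-labelled ones, with no overlap, a difference of -0.89 (SE 0.14, adjusted p = 0.00092) that all 20 alternatives called. In Rag-labelled cells its mean was 6.96. The calls of the adaptors Traf1 (0.82, adjusted p = 0.0492) and Traf5 (0.46, adjusted p = 0.0376) were each lost in 11 of 20 alternatives. Leaving out any single array but the second Art:Nfkb2-labelled one ended the call of Traf1, with adjusted p from 0.102 to 0.213, and leaving out any of the 6 ended that of Traf5, at 0.0567 to 0.161.

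Of 29 tested NF-kB target genes, 1 was higher (Traf1) and 0 were lower, against 1.78% and 2.21% of all genes. The list median was 0.19, beside -0.0015 over all genes, and 8 of the 29 differences lay below 0. At an unadjusted p below 0.05, 8 were higher and 0 lower, beside 1203 of all 8446 genes in either direction. The same list held 19 genes higher and 1 lower in Art-labelled than in Rag-labelled withdrawn cells, with a median of 0.88. That comparison, with 1607 of 8446 genes called (19%), shares the Art-labelled arrays. Cd40, a costimulatory receptor of B cells, read 13.15, 13.64 and 13.79 on the Art-labelled arrays against 13.56, 13.94 and 13.79 on the Art:Nfkb2-labelled ones, against a Rag-labelled mean of 11.71. The Art-labelled and Art:Nfkb2-labelled values overlapped (difference 0.24, adjusted p = 0.737). Pim2, a survival kinase, differed by -0.27 (adjusted p = 0.726) between them, and by 2.20 between Art-labelled and Rag-labelled cells. Swap70, a migration and switch-recombination factor, differed by 0.34 (adjusted p = 0.285) and by 1.14 in the same 2 comparisons. With 1 array left out in turn, the count of NF-kB targets was 0 or 1 higher and 0 lower. Over the other alternatives 0 to 5 were higher, with 5 under array weights and 3 each under the fixed replicate block and under normexp without detection p-values, and at most 1 was lower.

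Spic was lower in Art:Nfkb2-labelled cells. The gene encodes an ETS factor of the PU.1 family, which binds the same sites as PU.1 and can act against it at B-cell genes. It read 7.15, 7.31 and 7.09 on the Art-labelled arrays, all of which detected it, against 5.95, 5.58 and 5.99 on the Art:Nfkb2-labelled ones, none of which did. The groups were more than 1 log2 unit apart at their nearest values. The fitted difference was -1.34 (SE 0.13, adjusted p = 1.12e-05), and the level was at least 1.85-fold lower. Such a bound sets the brighter group against the lowest detected signal on the dim arrays. No Rag-labelled array detected it either (mean 4.89), so those groups have no order. All 20 alternatives kept the call. In IL-7 no array of any genotype detected Spic. The fit called it lower in Art:Nfkb2-labelled cells there too, but on undetected signal, so no fold is given. The other tested members of the family did not differ by the test. Spi1, which encodes PU.1, differed by 0.22 (adjusted p = 0.324) and Spib by 0.01 (adjusted p = 0.982). Syk and Blnk, the kinase and adaptor of pre-B-cell receptor signalling that the published study connected with Spic, differed by 0.10 (adjusted p = 0.868) and -0.05 (adjusted p = 0.961).

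**Figure D2:**
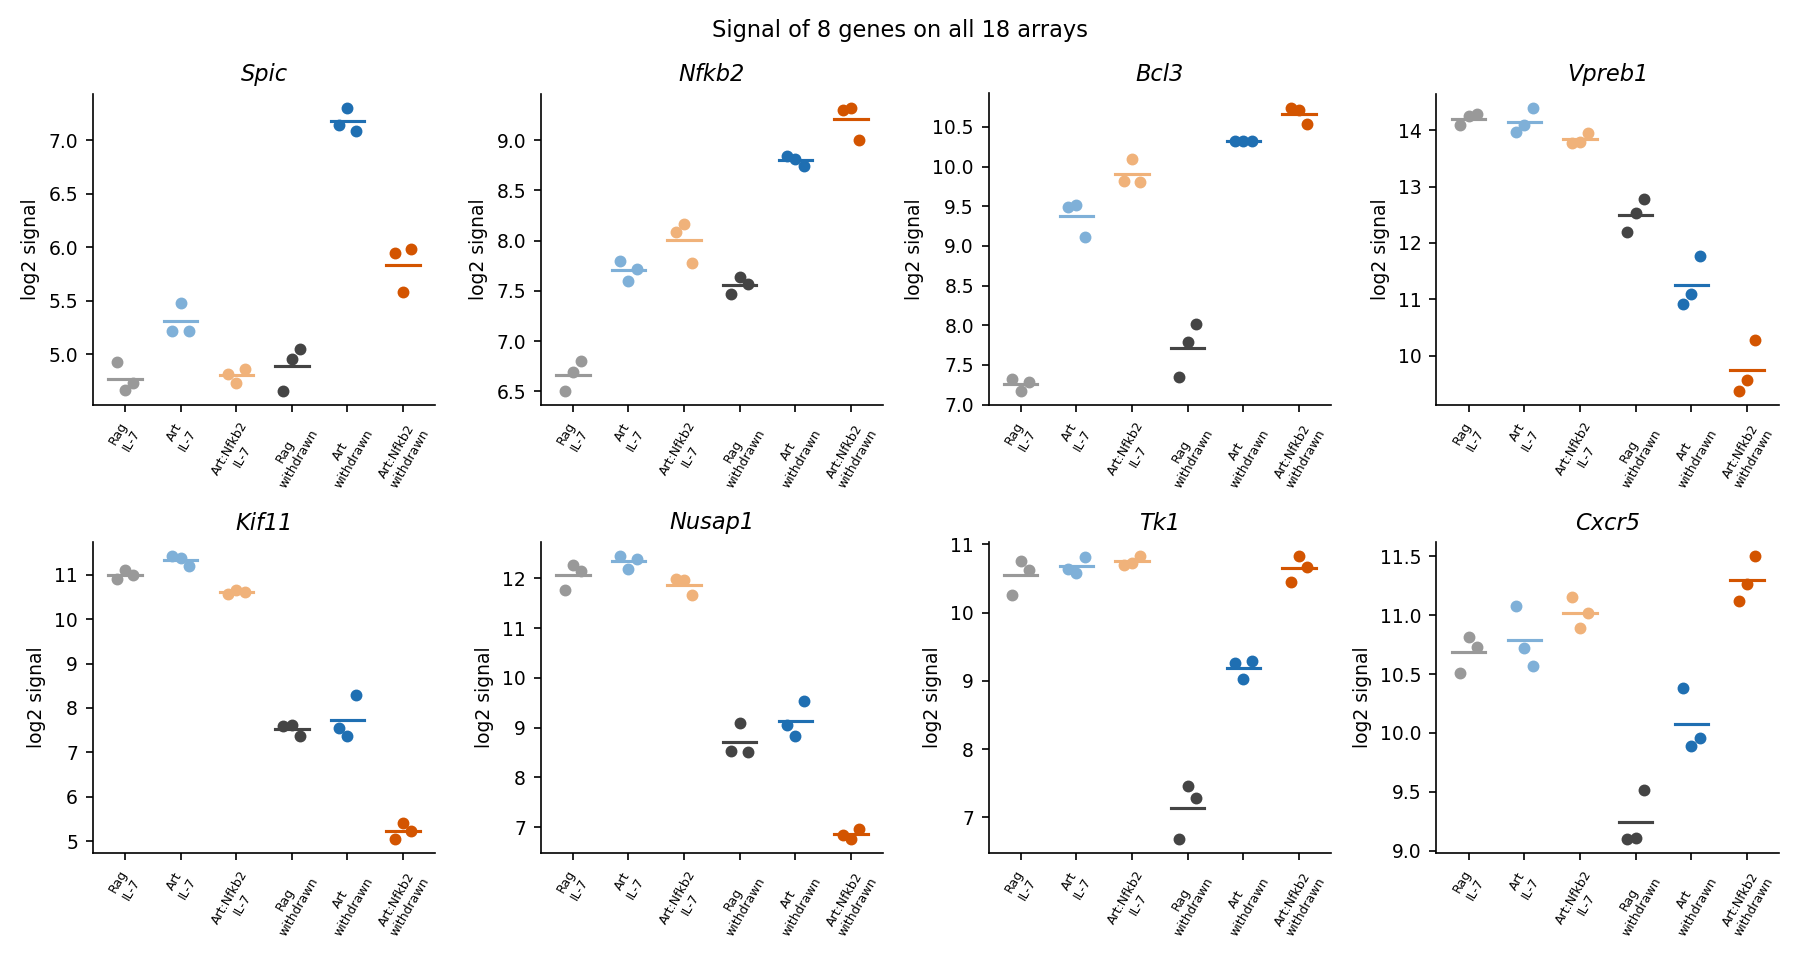
Log2 signal of 8 genes on all 18 arrays; points are arrays in replicate order, bars are group means, and each panel has its own y axis that does not start at 0. Spic is highest in withdrawn Art-labelled cells (7.09 to 7.31), Bcl3 and Nfkb2 are high in both Artemis-deficient groups, and Kif11 and Nusap1 are lowest on the withdrawn Art:Nfkb2-labelled arrays.

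Genes of mitosis and the spindle formed the main group among the lower genes. Of 59 listed, 48 had a probe, 36 passed the filter on low signal, 27 were lower and 0 were higher, against 2.21% and 1.78% of all genes tested. The median of the 36 was -1.03, or -0.93 with undetected genes at their bound, beside -0.0015 over all genes. Of the 36, 31 had every Art:Nfkb2-labelled array below every Art-labelled array, and 2 had every one above. Of all genes 25.2% did not overlap in either direction. All 27 called genes were among the 31, but they were called on these same arrays. Of the 27, 8 were detected on no withdrawn Art:Nfkb2-labelled array. The 9 tested members that were not called differed by -0.41 to 0.63.

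Kinesins of the spindle were among the lower genes. Kif11, the motor that pushes the spindle poles apart, read 7.55, 7.36 and 8.29 on the Art-labelled arrays against 5.05, 5.40 and 5.23 on the Art:Nfkb2-labelled ones. None of the latter arrays detected it, so that it was at least 2.72-fold lower, with a fitted difference of -2.51 (SE 0.18, adjusted p = 3.8e-07). Kif18b, a motor that acts on microtubule plus ends, read 8.66, 8.87 and 9.53 against 6.41, 6.13 and 6.62, a difference of -2.63 (SE 0.22, adjusted p = 2.25e-06). Kif2c, which takes apart microtubules wrongly attached to the centromere, read 7.83, 8.06 and 8.91 against 5.43, 5.79 and 5.67 and was at least 3.94-fold lower. In each of the 3 genes the lowest Art-labelled array was above the highest Art:Nfkb2-labelled array, and the third Art-labelled array was the highest. Kif4, a chromosome-bound motor, differed by -2.04 and Kif23, a motor of the cleavage furrow, by -1.87.

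Regulators of mitotic entry and exit were lower too. Cdk1, the kinase that drives mitosis, read 7.85, 7.72 and 8.82 against 6.17, 5.40 and 6.28, a difference of -2.18 (SE 0.33, adjusted p = 0.000788). Plk1, a kinase of centrosome maturation, differed by -1.53 (adjusted p = 0.00423), and Cdc20, an activator of the anaphase-promoting complex, by -1.29 (adjusted p = 0.000606). Espl1, the protease that cuts cohesin at anaphase, was at least 1.6-fold lower (6.52, 6.85 and 7.54 against 5.00, 5.01 and 5.24). Sgo1, which guards centromeric cohesin until then, was at least 1.93-fold lower. Birc5, which encodes survivin of the chromosomal passenger complex, differed by -2.10 (SE 0.29, adjusted p = 0.000289) and its partner Cdca8 by -1.59. The call of Cdca8 was lost in 5 of 20 alternatives, among them leaving out the third Art-labelled array (adjusted p = 0.108) or the third Art:Nfkb2-labelled array (adjusted p = 0.0983). Nusap1, which bundles spindle microtubules, read 9.06, 8.82 and 9.53 against 6.84, 6.76 and 6.96 (difference -2.29, adjusted p = 2.18e-06). Prc1, which bundles those of the midzone, differed by -1.67. Top2a, the topoisomerase that disentangles sister chromatids, read 8.76, 8.99 and 9.61 against 7.04, 7.08 and 7.05, a difference of -2.07 (SE 0.21, adjusted p = 1.77e-05).

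The means of all 27 genes were lower after withdrawal than in IL-7 in both genotypes, with a median difference of -3.05 for Art-labelled cultures and -4.03 for Art:Nfkb2-labelled cultures. The Rag-labelled mean after withdrawal was above every Art:Nfkb2-labelled array for all 27, and between Art-labelled and Rag-labelled cells, which share the Art-labelled arrays with the genotype comparison, 1 of the 27 was called (median difference 0.20). The third Art-labelled array was the highest of its group for all 27 genes. Without it 21 members were lower, and over all single arrays left out the count ran from 21 to 28. Without the culture with Y-linked signal it was 24, and with median scaling 22 were lower and 1 was higher.

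**Figure D3:**
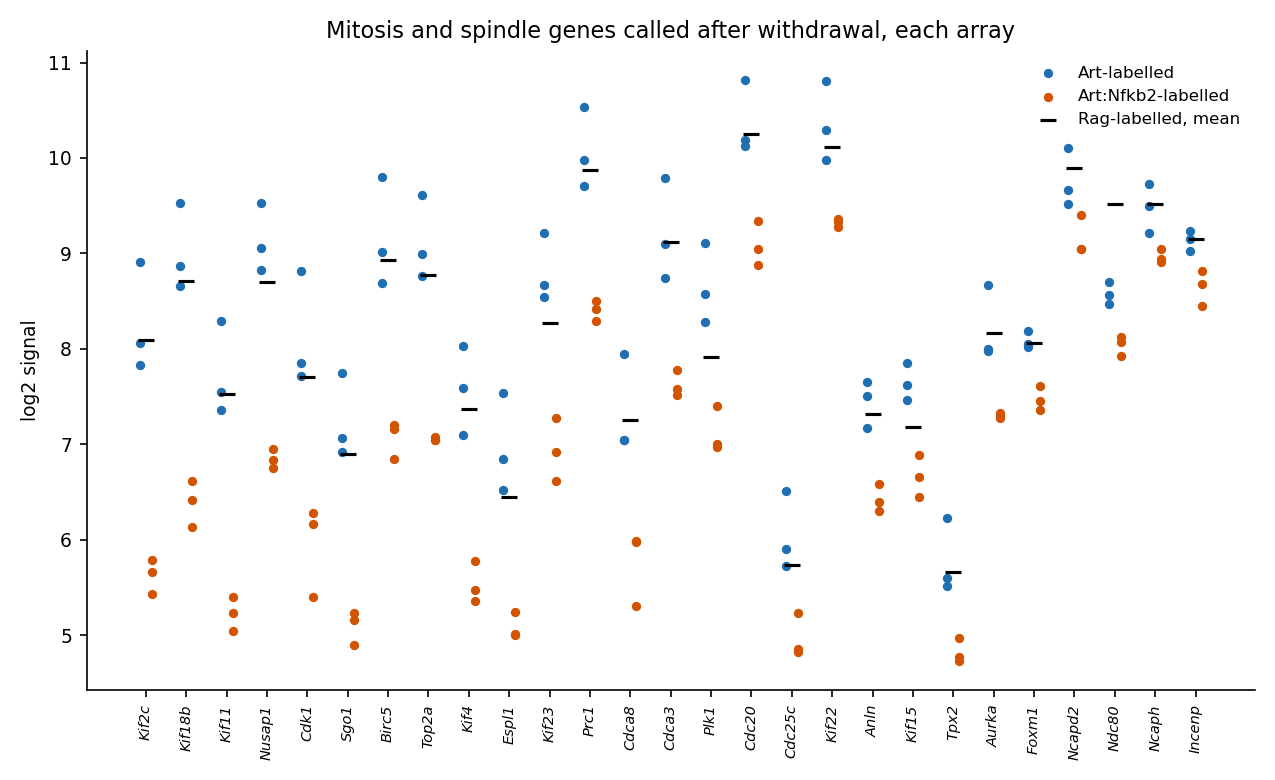
Log2 signal of the 27 mitosis and spindle genes lower in Art:Nfkb2-labelled cells after withdrawal, ordered by the size of the difference; blue and orange points are single arrays and the black mark is the mean of the Rag-labelled arrays. Every orange point lies below the blue points of the same gene, and the Rag-labelled mean lies above every orange point. The genes were chosen as lower on the orange arrays, which favours both orders.

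Promoters of cell-cycle genes that peak in mitosis often carry a cell-cycle homology region (CHR, letters TTTGAA) close to the start site with CCAAT boxes a short way upstream. The promoters of 4 of these genes are shown because the group was lower together, from 100 bases before to 30 bases after the RefSeq start site (130 bases, GRCm38.p6), with both motifs in capitals on either strand. Kif11 lies at chr19:37376282-37376411 on the plus strand, Espl1 at chr15:102296193-102296322 on the plus strand, Kif18b at chr11:102925095-102925224 on the minus strand and Top2a at chr11:99024160-99024289 on the minus strand. The sequences read 5′ to 3′ as follows.
Kif11: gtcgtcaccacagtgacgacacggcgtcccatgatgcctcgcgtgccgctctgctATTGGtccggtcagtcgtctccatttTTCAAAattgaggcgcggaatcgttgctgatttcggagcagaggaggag
Espl1: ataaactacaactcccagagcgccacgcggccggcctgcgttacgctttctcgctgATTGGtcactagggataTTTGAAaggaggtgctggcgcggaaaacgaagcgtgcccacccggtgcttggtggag
Kif18b: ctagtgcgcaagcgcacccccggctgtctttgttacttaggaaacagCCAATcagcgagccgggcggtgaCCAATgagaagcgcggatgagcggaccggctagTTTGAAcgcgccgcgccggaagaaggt
Top2a: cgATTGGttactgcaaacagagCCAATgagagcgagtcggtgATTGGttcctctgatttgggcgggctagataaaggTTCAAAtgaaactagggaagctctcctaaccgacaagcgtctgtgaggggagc

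The nearest CHR began 19, 27 and 23 bases before the start in Kif11, Espl1 and Top2a and 3 bases after it in Kif18b, and the nearest CCAAT box began 45, 44, 58 and 30 bases before the start in Kif11, Espl1, Top2a and Kif18b. Over windows of 250 bases before to 50 after the start, 23 of the 27 lower mitosis genes matched a RefSeq window. Of these, 19 held TTTGAA (82.6%), 16 held CCAAT (69.6%) and 15 held both (65.2%), on either strand. Neither motif contains the other. Among the 31 tested mitosis and spindle genes with a window, called or not, the shares were close to these, at 74.2%, 67.7% and 61.3%. Among 6410 tested genes with a window the shares were 14.5%, 44.7% and 6.18%, and among all 32851 windows 17.9%, 37.4% and 6.95%. Of 145 lower genes of any kind with a window, 32.4% held TTTGAA, and of 112 higher genes 17.9%. These are matches of letters, given as a description.

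Genes of DNA replication were called in both directions. Of 37 tested, 5 were lower and 2 higher, against 2.21% and 1.78% of all genes, and the median was -0.11. Pclaf, a partner of the replication clamp, read 7.58, 7.16 and 8.91 on the Art-labelled arrays against 5.77, 5.86 and 5.81 on the Art:Nfkb2-labelled ones, and was at least 3.01-fold lower (adjusted p = 0.00423). Mcm10, which helps to fire origins, was at least 2.45-fold lower, and Uhrf1, which carries methylation through replication, differed by -1.24 (SE 0.16, adjusted p = 0.000159). Rrm2, a subunit of ribonucleotide reductase, was at least 1.22-fold lower, and its call was lost in 5 of the 19 alternatives that tested it. Without the second Art-labelled, the third Art-labelled or the second Art:Nfkb2-labelled array its adjusted p was 0.065, 0.123 and 0.114.

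Tk1 moved the other way. This thymidine kinase of the salvage pathway read 9.26, 9.03 and 9.29 on the Art-labelled arrays against 10.45, 10.83 and 10.68 on the Art:Nfkb2-labelled ones, with no overlap (difference 1.46, SE 0.18, adjusted p = 8.66e-05). Its mean was 7.14 in withdrawn Rag-labelled cells and 10.76 in Art:Nfkb2-labelled cells in IL-7, so the withdrawn Art:Nfkb2-labelled arrays were close to the level in IL-7. Cdt1, which licenses origins, differed by 0.56 (adjusted p = 0.0123), and the call was lost without the third Art-labelled array (adjusted p = 0.0599) or the second Art:Nfkb2-labelled array (adjusted p = 0.0739). Among 21 regulators of G1, 2 were lower and 0 higher, against 2.21% and 1.78% of all genes. They were E2f1, a driver of S-phase genes, at -0.57 (adjusted p = 0.0289), and Ccnd3, the cyclin that pre-B cells depend on, at -0.36 (adjusted p = 0.0144). Those calls were lost in 9 and 7 of 20 alternatives. Leaving out any single array but the first Art-labelled one ended that of E2f1 (adjusted p = 0.0553 to 0.156), and leaving out the second or the third Art-labelled array, or the first or the third Art:Nfkb2-labelled one, ended that of Ccnd3 (adjusted p = 0.0561 to 0.0629). Clspn, the checkpoint adaptor claspin, was the 1 of 19 break sensing and repair genes called, at least 2.01-fold lower, against 3.99% of all genes called.

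Targets of p53, which breaks in these cells are known to induce, showed no called difference. Of 29 tested, 0 were higher and 0 lower in limma, near the shares over all genes of 1.78% and 2.21%. Their median was -0.17, with single differences from -0.56 to 0.51. At an unadjusted p below 0.05, 2 were higher and 4 lower, beside 1203 of all 8446 genes in either direction. In Art-labelled against Rag-labelled withdrawn cells 18 were higher and 3 lower, with a median of 1.06, where 19% of all genes were called. That comparison shares the Art-labelled arrays. Between Art:Nfkb2-labelled and Art-labelled cells, at most 1 target was higher and 2 were lower in any alternative.

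**Figure D4:**
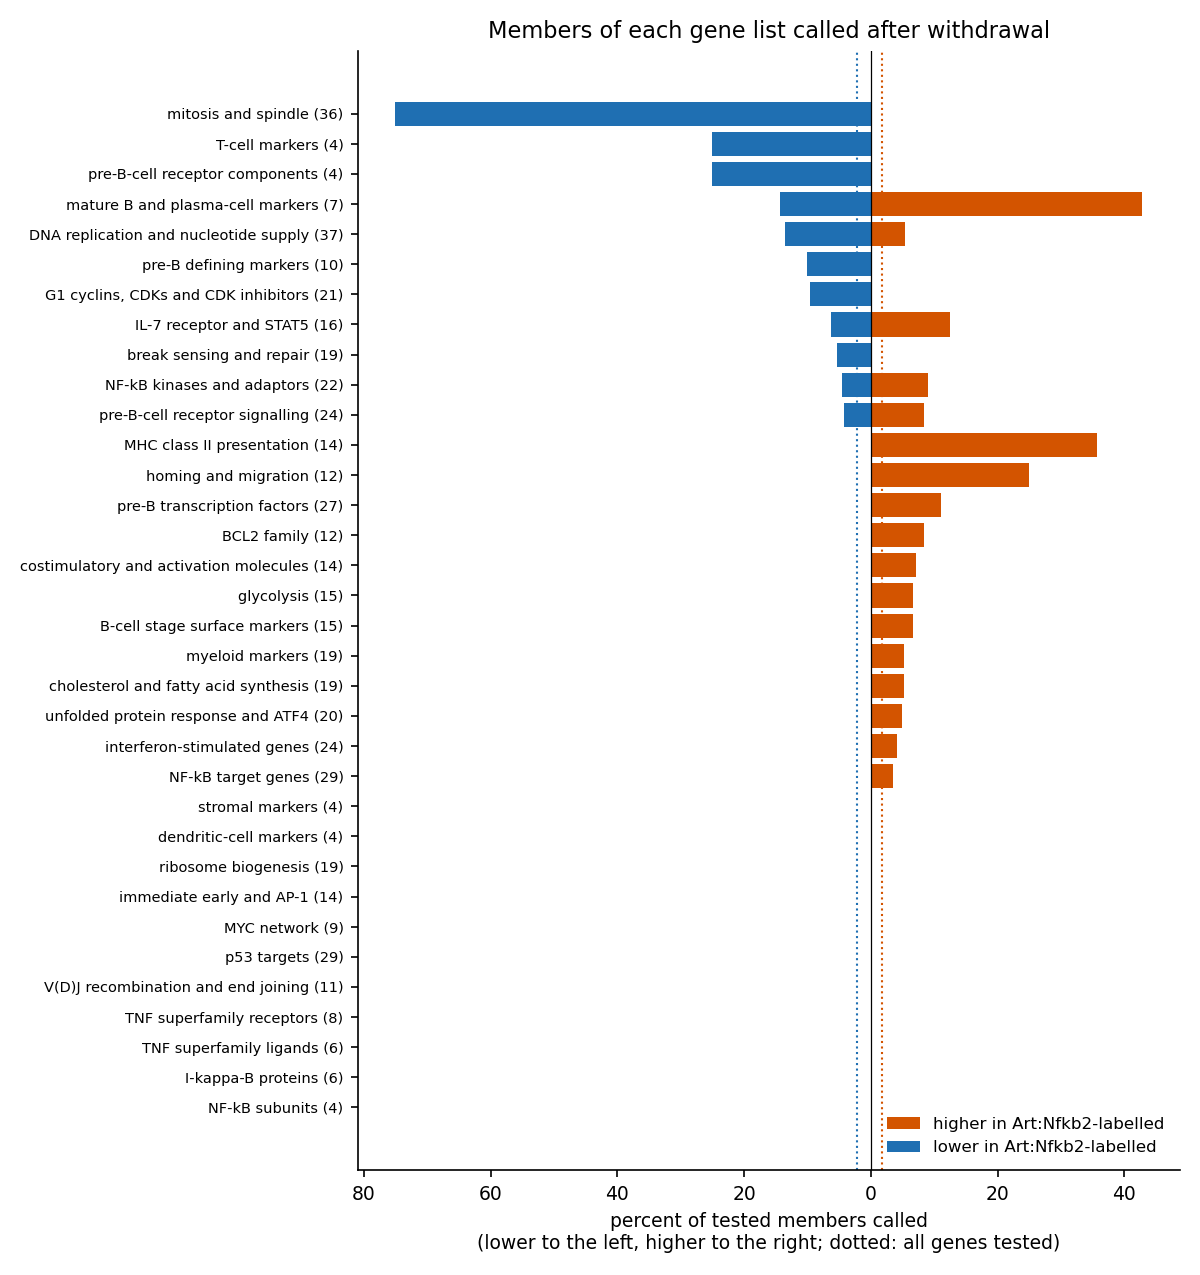
Percent of the tested members of each gene list called lower (blue, to the left) or higher (orange, to the right) in Art:Nfkb2-labelled than in Art-labelled cells after withdrawal, with the number tested in brackets; dotted lines mark the shares over all genes, 2.21% lower and 1.78% higher. The bar for mitosis and spindle stands for 27 of 36 genes, and the lists of NF-kB subunits, I-kappa-B proteins and p53 targets have none.

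Of 14 tested genes that present antigen on MHC class II, 5 were higher and 0 lower, against 1.78% and 2.21% of all genes, with a median of 0.66. In 10 of them every Art:Nfkb2-labelled array was above every Art-labelled array, where 25.2% of all genes did not overlap in either direction. H2-DMb2, a chain of the peptide-loading factor, read 9.98, 10.17 and 9.90 on the Art-labelled arrays against 11.09, 11.31 and 11.52 on the Art:Nfkb2-labelled ones (difference 1.29, SE 0.27, adjusted p = 0.00975). H2-DMb2 resembles H2-DMb1 in sequence, which differed by 0.94 (adjusted p = 0.0579). H2-DMa, the partner chain, differed by 0.96 (adjusted p = 0.00807). The surface chains H2-Eb1 and H2-Ab1 differed by 1.09 (adjusted p = 0.0124) and 0.98 (adjusted p = 0.0333). In IL-7 8 members were higher, against 3.01% of all genes, with a median of 0.98. The count after withdrawal rested on single arrays: it was 1 without the third Art-labelled or the third Art:Nfkb2-labelled array, 2 without the first Art-labelled array, 3 without the second Art:Nfkb2-labelled array and 6 without the first. H2-DMa kept its call in all 20 alternatives, H2-DMb2 in all but 2, H2-Eb1 in all but 3 and H2-Ab1 in all but 8.

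Of 30 listed markers of myeloid cells, which also carry MHC class II, 19 were tested. Against 1.78% and 2.21% of all genes, 1 of these markers was higher and 0 were lower. Their summed level ran from 13.09 to 13.17 on the log2 scale on the Art-labelled arrays and from 13.83 to 14.22 on the Art:Nfkb2-labelled arrays, without overlap. At least 1 Art-labelled array detected 8 of the 19, and at least 1 Art:Nfkb2-labelled array detected 13. Their part in the MHC class II result was not tested beyond the covariate below. Only Fcgr3, a low-affinity Fc receptor, was called: it read 5.07, 5.18 and 5.28 against 8.40, 8.03 and 8.12, at least 3.56-fold higher (adjusted p = 4.59e-05). Lyz2, the lysozyme of macrophages and granulocytes, differed by 1.54 (adjusted p = 0.119), Adgre1, a surface receptor of macrophages, by 1.34 (adjusted p = 0.216) and Fcer1g, an Fc receptor chain, by -2.58 (adjusted p = 0.425). The neutrophil granule genes Mpo, Elane and Prtn3 were detected on none of the 6 arrays. The median of the list was 0.50, or 0.02 with undetected genes at their bound. In a fit of the 6 withdrawn arrays alone, 9 members were higher, and 236 genes in all. In IL-7 9 were higher, against 3.01% of all genes, with a median of 1.04. With the mean myeloid level as a covariate, 4 MHC class II genes were higher, and 133 genes in all.

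Components of the pre-B-cell receptor stood apart in 1 gene. Vpreb1, a chain of the surrogate light chain, read 10.92, 11.09 and 11.77 on the Art-labelled arrays against 9.38, 9.58 and 10.28 on the Art:Nfkb2-labelled ones. The groups did not overlap (difference -1.51, SE 0.23, adjusted p = 0.000874), and all 20 alternatives called it. Vpreb1 has a near-identical copy, Vpreb2, whose RNA its probe may also read. Withdrawn Rag-labelled cells had a mean of 12.50. Vpreb3 differed by -0.12, and the receptor chains Cd79a and Cd79b by 0.26 and 0.01, none called. Of 24 tested signalling genes 2 were higher and 1 lower, against 1.78% and 2.21% of all genes. Rasgrp3 and Rasgrp1, which activate Ras in response to diacylglycerol, differed by 1.57 (8.73, 8.72 and 8.54 against 10.00, 10.31 and 10.38, adjusted p = 0.000773) and 0.95 (adjusted p = 0.000857). Zap70, a kinase related to Syk that T cells use, differed by -0.59 (adjusted p = 0.00614), and median scaling ended its call (adjusted p = 0.12). The recombinase gene Rag1 differed by -0.34 (adjusted p = 0.499), and Rag2 was detected on none of the 6 arrays.

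Several genes of later B-cell stages were higher, and others were lower. Cxcr5, the receptor that guides B cells into follicles, read 10.38, 9.89 and 9.96 on the Art-labelled arrays against 11.12, 11.27 and 11.50 on the Art:Nfkb2-labelled ones (difference 1.22, SE 0.17, adjusted p = 0.000289). Gpr183, a receptor for oxysterols that positions B cells in lymphoid tissue, differed by 1.35 (SE 0.23, adjusted p = 0.00241). Fcer2a, which encodes the mature B-cell marker CD23, read 7.08, 7.64 and 7.67 against 8.19, 8.62 and 8.87 (difference 1.09, adjusted p = 0.00124). In each of the 3 genes the groups did not overlap, and all 20 alternatives kept the call. Cd1d1, which presents lipids, went the other way by -1.47 (SE 0.22, adjusted p = 0.000601), and Ms4a1, which encodes CD20, differed by 0.96 (adjusted p = 0.22). The markers Sdc1 and Fcmr differed by -0.92 (adjusted p = 0.0528) and -0.24 (adjusted p = 0.758), and 7 of 20 alternatives called Sdc1. Of 12 tested homing genes 3 were higher. Of 7 mature B and plasma-cell markers 3 were higher and 1 lower, and 3 of the 7 differences lay below 0. Over all genes 1.78% were higher and 2.21% lower.

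Of 27 pre-B transcription factors 3 were higher and 0 lower, against 1.78% and 2.21% of all genes. Pou2af1, the coactivator OCA-B of immunoglobulin promoters, read 14.52, 14.47 and 14.39 on the Art-labelled arrays against 15.20, 15.29 and 15.13 on the Art:Nfkb2-labelled ones, a difference of 0.75 (SE 0.08, adjusted p = 4.55e-05). Id3, an inhibitor of E proteins, differed by 1.09 (SE 0.16, adjusted p = 0.000661), and Xbp1, a factor of the secretory program, by 0.70 (adjusted p = 0.00688). These calls held in all 20 alternatives. Pax5 and Ebf1, which fix B-cell identity, differed by 0.30 (adjusted p = 0.816) and -0.55 (adjusted p = 0.059).

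Pgk1, Foxq1, Pglyrp1, Ctse and Il9r were among the higher genes. Pgk1, a glycolytic enzyme gene on the X chromosome represented by 1 probe, read 4.86, 4.83 and 4.75 on the Art-labelled arrays against 9.06, 9.10 and 9.07 on the Art:Nfkb2-labelled ones, at least 6.63-fold higher (adjusted p = 5.66e-12). No array of Rag-labelled or Art-labelled cells detected it in either condition, and all 6 Art:Nfkb2-labelled arrays did. Whether this probe reads the Pgk1 transcript or a sequence of the targeted allele was not tested, so the value is that of the probe. The other 14 glycolysis genes tested differed by -0.09 to 0.45 and none was called. Foxq1, a forkhead factor, showed the same detection pattern and was at least 5.6-fold higher, and Pglyrp1, an antibacterial protein of granules, was at least 8.74-fold higher. Ctse, an intracellular protease, read 9.72, 9.78 and 9.83 against 13.98, 13.24 and 13.21, a difference of 3.70 (SE 0.25, adjusted p = 2.07e-07). Il9r, the receptor chain for IL-9, read 5.00, 5.18 and 4.81 against 8.07, 7.99 and 8.17 and was at least 3.3-fold higher (adjusted p = 6.03e-09). In each of these genes every Art:Nfkb2-labelled array was above every Art-labelled array. Camk2b, at least 2.92-fold higher, and Ret, a receptor tyrosine kinase with a difference of 1.87, had Rag-labelled means of 9.70 and 10.26, above both Artemis-deficient groups. Bcl2 differed by 0.82 (adjusted p = 0.0196). The cells carry a Bcl2 transgene, 1 of 4 probes was called, and the mean of its probes gave an adjusted p of 0.183. With single arrays left out, that value was 0.0517 to 0.0765 for 5 of the 6 arrays.

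The same genotypes were compared in IL-7, on other arrays of the same cultures, to see which differences were there before withdrawal. In IL-7 371 genes were called (4.39%), 254 higher (3.01%) and 117 lower (1.39%). Of the 337 genes called after withdrawal, 144 were also called in IL-7 (42.7% of the former, 38.8% of the latter), 143 of them in the same direction. Of the 150 higher genes 90 (60%) were called in both, and of the 187 lower genes 53 (28.3%). In IL-7 the Pgk1 probe was at least 4.24-fold higher, Ctse differed by 4.54, Fcgr3 by 3.39 and H2-Eb1 by 1.32, all called. The mitosis genes had 3 of 36 lower in IL-7, with a median of -0.44. Without the first, the second or the third Art-labelled array in IL-7, 216, 247 and 210 genes were called there, and without the first or the third Art:Nfkb2-labelled one 187 and 208.

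**Figure D5:**
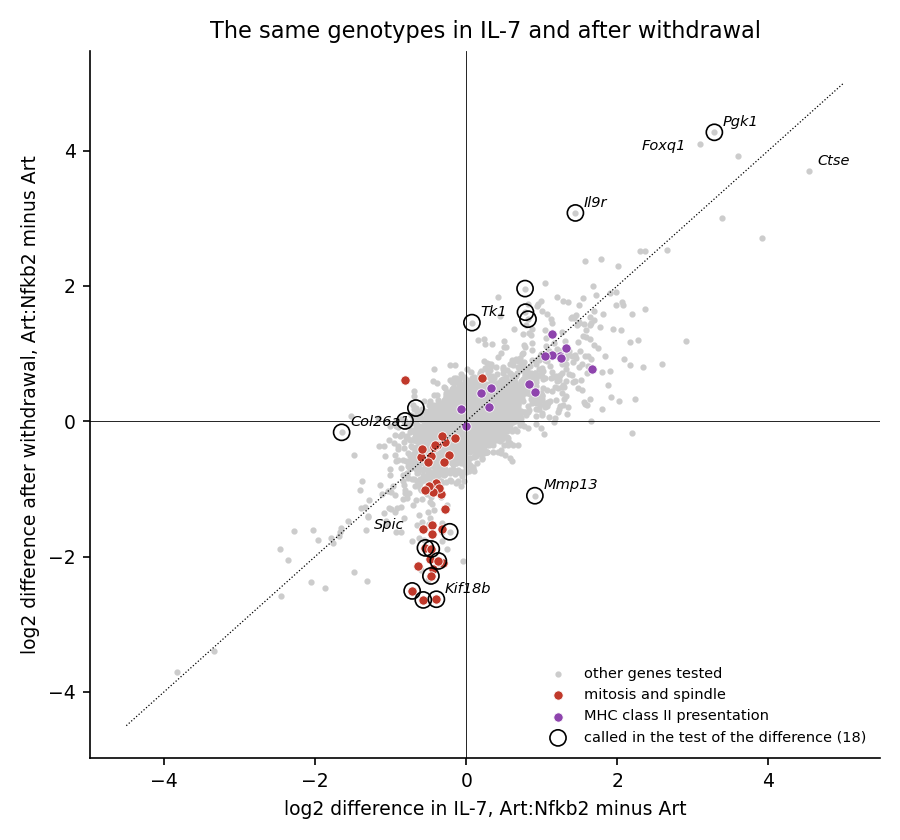
Log2 difference between Art:Nfkb2-labelled and Art-labelled cells in IL-7 (x axis) and after withdrawal (y axis) for the 8446 genes tested; the dotted line marks equal differences and circles mark the 18 genes called in the test of the difference between them. Pgk1, Foxq1 and Ctse are high on both axes, while the mitosis and spindle genes (red) spread downwards from a narrow range on the x axis, Kif18b from -0.39 to -2.63.

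The genotype difference itself differed between the conditions for 18 genes (0.213%), 9 in each direction. Of the 9 with a more negative difference after withdrawal, 7 were mitosis and spindle genes, and the largest was that of Kif18b, at -2.24 (adjusted p = 0.00843). The others were Mcm10 and Mmp13, a collagenase that was higher in IL-7 (0.91) and lower after withdrawal (-1.10, adjusted p = 0.0123). The withdrawn call of Mmp13 was lost without the third Art-labelled array (adjusted p = 0.0754) or the second Art:Nfkb2-labelled array (adjusted p = 0.0565). Tk1 (1.38, adjusted p = 0.0355) and Il9r (1.63, adjusted p = 0.00843) differed in the positive direction. No withdrawn Art-labelled array detected Il9r, so the size of its value is uncertain. Since arrays of a culture in the 2 conditions deviated together, the culture was also fitted as a random block, which called 88 genes, 36 higher and 52 lower, with all 18 among them. Spic was detected in 1 of the 4 groups of this test, so no value is given for it. The main fit did not call it and the fit with the random block did, both in part on undetected signal. For MHC class II genes 0 were called in this limma test, also at an unadjusted p below 0.05, with a median of -0.13. Without any 1 array of the 4 groups the count of 18 ran from 4 to 19.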

How the data were processed

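RNA of 18 samples was measured on 1-colour Illumina MouseRef-8 arrays. Each probe of the deposited main table has an intensity and a detection p-value for every array, without normalization, per the file headers. The series matrix, also deposited, gives a background-subtracted intensity that served as an alternative; its making is not fully documented here. Partek and GenomeStudio appear in the submitters' processing notes. Sample titles set the groups, since the genotype field writes Nfkb2 without a knockout mark. The labels name no slide, so no slide block was fitted.

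The neqc function of limma 3.58.1 (R 4.3.3) corrected background from the detection p-values, quantile-normalized and took log2 after adding 16, which understates differences of dim genes. The filter kept 11356 of 25697 probes, those with a detection p below 0.01 on 3 arrays or more. Of all probes 23978 had 1 gene symbol, 0 had several and 1719 had none. Each gene was read from its brightest probe, giving 8446 entries, of which 673 carry only a probe ID. A model over 6 groups of 3 arrays was fitted per gene with lmFit and eBayes. Two-sided p-values were adjusted within each comparison (Benjamini-Hochberg, threshold 0.05). SE is the moderated standard error. The fit was tested on simulated data. For a gene undetected on all arrays of one group, the bound divides the bright group's mean by a floor. The floor averages, over the dim arrays, whichever is higher of the gene's signal and the lowest detected signal there. Promoter sequences are RefSeq's (GRCm38.p6).

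The members, gene lists and naming rule were chosen with earlier results of these data known, so no list's direction is independent evidence. Named were the targeted genes, the genes of the published study, the 15 largest called differences per direction without overlap, called list members of at least 2-fold or among the 4 largest, all members of 5 short families, the genes called in the difference between conditions, and defining markers. Same-numbered arrays of the withdrawn groups deviated with correlations of 0.18, -0.02 and 0.16. Their other pairs ran from -0.20 to 0.05, so the numbers pair them weakly at most. Same-numbered arrays of a genotype in IL-7 and after withdrawal correlated at 0.37 to 0.59, so cultures pair across time.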

Additional observations from a re-analysis of the deposited data

Results flagged for a closer look

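For 18 genes the difference between Art:Nfkb2-labelled and Art-labelled cells was not the same after withdrawal as in IL-7, by the interaction contrast in limma. The values are the withdrawn difference minus the IL-7 difference, on the log2 scale. For mitosis and spindle genes they were -2.24 for Kif18b, -2.07 for Kif2c, -1.82 for Nusap1, -1.79 for Kif11, -1.70 for Top2a, -1.43 for Espl1 and -1.33 for Kif23. For the other genes with a negative value they were -2.01 for Mmp13 and -1.42 for Mcm10. All 6 Art-labelled and Art:Nfkb2-labelled arrays in IL-7 detected Kif11, Kif2c and Espl1, but no withdrawn Art:Nfkb2-labelled array did. The fitted values of those genes are not bounds, rest in part on undetected signal and are uncertain in size.

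Positive values were 1.63 for Il9r, 1.48 for Col26a1, 1.38 for Tk1, 1.18 for Slc20a1, 0.98 for Pgk1, 0.86 for Ube2t, 0.83 for Snrnp25, 0.81 for Mxd3 and 0.69 for Ift140. Col26a1, Ube2t and Mxd3 were detected on no withdrawn array of either genotype. Their differences lie in the IL-7 arrays, at -1.65, -0.67 and -0.81. In Tk1 the IL-7 difference was 0.08 and the withdrawn difference 1.46. In Il9r, Snrnp25, Ift140, Slc20a1 and Pgk1 the probe signal was higher in Art:Nfkb2-labelled cells in both conditions. No Art-labelled array detected Pgk1 in either condition, and no withdrawn Art-labelled array detected Il9r. The fitted values of Pgk1 and Il9r therefore rest in part on undetected signal and are uncertain in size. Without the culture with Y-linked signal, 4 genes were called in this test.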

How the results depend on the processing

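Counts of genes higher and lower after withdrawal, and at 2-fold, stayed within 1.5 times the reported ones under the alternatives run, except as follows. The 6 withdrawn arrays alone gave 236 higher. Array weights gave 351 higher, 406 lower, 602 called in IL-7 and 55 in the difference between conditions. Median scaling gave 119 lower, 246 in IL-7 and 8 in the difference between conditions. Normexp without detection p-values gave 49 lower at 2-fold and 9 in the difference, and no filter gave 9. Without the culture with Y-linked signal there were 96 higher, 197 in IL-7 and 4 in the difference, and with a myeloid covariate 169 in IL-7. The culture as a random block gave 88 in the difference. The cause of these shifts was not tested. With single arrays left out, 99 to 150 genes were higher and 112 to 183 lower, 51 to 61 and 55 to 87 at 2-fold, 187 to 353 were called in IL-7 and 4 to 19 in the difference. Leaving out single IL-7 arrays was chosen after seeing the data. The replicate number as a fixed block, though the numbers pair the withdrawn groups weakly at most, gave 168 higher and 192 lower. Of 76 named genes called, 56 kept the call in all 20 alternatives and 20 lost it in at least 1, 21 uncalled ones gained it in at least 1, and 0 reversed. Dim genes are limited by signal over background: 10 of the 36 mitosis genes were undetected in at least 1 withdrawn group.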

Other observations

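Genes named here were chosen after their values were seen. The Gimap genes, which encode GTPases of lymphocytes and lie in a cluster, were higher in Art:Nfkb2-labelled cells after withdrawal for 5 of 7 tested. Of the 7, 0 were lower, and over all genes 1.78% were higher and 2.21% lower. Gimap7 read 8.53, 8.65 and 8.56 on the Art-labelled arrays against 10.36, 10.45 and 10.93 on the Art:Nfkb2-labelled ones, a difference of 2.00 (adjusted p = 0.000135). Gimap3 differed by 1.54, Gimap6 by 0.90, Gimap8 by 0.78 and Gimap1 by 0.53. In IL-7 4 of the 7 were called, against 4.39% of all genes. Replication-dependent histone genes, whose transcripts belong to S phase, had 8 of 46 lower and 0 higher after withdrawal. The shares over all genes were 2.21% and 1.78%, and the median of the 46 was -0.53. H3c7 differed by -1.09 (adjusted p = 0.0153) and H2bc7 by -1.01 (adjusted p = 0.0247). Histone genes are near-identical in sequence, so single members are uncertain.

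Of the 50 tested genes nearest to Nfkb2 on chromosome 19, 25 on each side, 8 were called after withdrawal (16%). On the rest of the chromosome 13 of 239 were called, and over all genes 3.99%. Mfsd13a differed by -1.62, Sfxn3 by -1.05, Gsto1 by -1.02, Arl3 by -0.76, Btrc by -0.67 and Stn1 by -0.55, while Armh3 differed by 0.56 and Fbxl15 by 0.53. In IL-7 6 of the 50 were called, 5 of them in both conditions, where 4.39% of all genes were called in IL-7. On chromosome 11, 4 of the 10 tested genes nearest to Il9r were higher and 0 lower, against 1.78% and 2.21% of all genes. Nsg2 (0.99) precedes Il9r (3.08), and Snrnp25 (1.61), Rhbdf1 (2.40) and Mpg (0.78) follow it, all called. These 4 neighbours were also called between Art-labelled and Rag-labelled withdrawn cells, at 1.12, 1.48, 1.92 and 0.93, and Il9r was not (0.14). That comparison shares the Art-labelled arrays and called 19% of all genes.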
